A study of Arabidopsis thaliana with 2 samples.

Results

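The DNA replication and E2F genes followed here are 32 of the 36917 gene identifiers counted in nuclei of Arabidopsis thaliana inflorescences. They were chosen by identifier and by function, with earlier results of these data known, and the rule itself used no measured value. They comprise the 6 genes of the replicative helicase, MCM2 (AT1G44900), MCM3 (AT5G46280), MCM4 (AT2G16440), MCM5 (AT2G07690), MCM6 (AT5G44635) and MCM7 (AT4G02060), and 2 genes that activate it, MCM10 (AT2G20980) and CDC45 (AT3G25100). The 8 licensing genes are ORC1A (AT4G14700), ORC1B (AT4G12620), ORC2 (AT2G37560), ORC3 (AT5G16690), CDC6 (AT2G29680), AT1G07270, CDT1A (AT2G31270) and CDT1B (AT3G54710). The 7 genes of the replication fork are PCNA1 (AT1G07370), PCNA2 (AT2G29570), ICU2 (AT5G67100), POLA2 (AT1G67630), POLD1 (AT5G63960), TIL1 (AT1G08260) and LIG1 (AT1G08130). The remaining members are the ribonucleotide reductase genes RNR1 (AT2G21790) and TSO2 (AT3G27060), the 3 chromatin genes FAS1 (AT1G65470), FAS2 (AT5G64630) and MET1 (AT5G49160), and 4 genes of the E2F family, E2FA (AT2G36010), E2FB (AT5G22220), E2FC (AT1G47870) and DEL1 (AT3G48160). Every identifier was found in both libraries.

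Before S phase, the origin recognition complex, CDC6 and CDT1 load the MCM helicase onto DNA, which licenses the origins. In S phase CDC45 and MCM10 help to activate the helicase, polymerases copy the strands, PCNA clamps them to DNA, ribonucleotide reductase supplies deoxynucleotides, and chromatin assembly factor 1 and MET1 restore nucleosomes and DNA methylation behind the fork. E2F transcription factors, held in check by the retinoblastoma-related protein RBR1, bind short GC-rich motifs in many of these genes, and meristems are known for strong expression of them.

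The 2 libraries, 1 per time point, were made from inflorescences after 4 days of DEX-induction (stage 5) and after 3 days (stage 4). Plants of both groups carried pAP1:AP1-GR and the ap1-1 and cal-1 alleles in the ecotype Ler, and both received 2 μM dexamethasone daily, so no uninduced or wild type sample stands beside them. The AP1 promoter drives the inducible AP1-GR protein, and about 20 inflorescences were pooled for a library, with all their tissues. In the protocol text the fourth day is named for either sample, whereas the titles and the methods of the study give day 4 and day 3.

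At least 1000 nuclear genes were detected in 4545 nuclei at day 4 and 4397 nuclei at day 3, which held 10202530 and 11083512 UMIs of nuclear genes. The median depth was 1805 UMIs at day 4 and 1842 UMIs at day 3, and 6 barcodes were shared by nuclei of both libraries. Single members had 112 to 2454 UMIs at day 4 and 113 to 2477 UMIs at day 3. Because no day had a second library, no difference below has a replicate check, and no test was run. A range in parentheses is a 95% interval for counting error alone. A cluster named cluster 6 here, with 48 nuclei at day 4 and 447 at day 3 and median depths of 4073 and 3548 UMIs, stood apart. It was led by LTP6, TGG1 and ribosomal genes and was given no cell type name. Droplets with too few UMIs to count as nuclei, taken here as a measure of free RNA, held the members as well: in 54681 day 3 droplets with 50 to 200 UMIs the 32 genes together reached 1979 CPM (UMIs per 1000000 UMIs of nuclear genes), against 1920 CPM in day 3 nuclei, and 18 of the 32 were higher in the droplets. The ratio of droplets to nuclei ran between 0.582 and 1.61 over the members.

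The E2F motifs near the gene starts are shown first, because they differ among members whose levels are compared below. The letters TTTCCCGC, TTTGGCGC, TTTCGCGC and TTTGCCGC were searched on both strands within the 250 bases before the gene start and the 50 bases after it, in the RefSeq annotation of TAIR10.1, a genome of another ecotype than Ler. The motifs are distinct on either strand, though matches may overlap in part. A match was found in 14 of the 32 members (43.8%), in 14 of 54 other replication genes (25.9%) and in 483 of 27438 protein-coding genes (1.76%). Of the members, 12 had a match before the start, while those of RNR1 and POLA2 lay after it. With only the TTTCCCGC and TTTGGCGC forms the shares were 40.6%, 25.9% and 1.21%. Matches stood before the starts of MCM2, MCM3, MCM4, MCM5 and MCM6 but not of MCM7, of ORC1A, ORC2, ORC3 and AT1G07270 among the licensing genes, and of ICU2, FAS1 and FAS2, with 2 each for ICU2 and FAS1. A match is a string of letters and not a measured binding site. The windows below, written 5′ to 3′ on the strand of the gene, show the MCM genes that hold a motif together with AT1G07270 and ICU2, with the motif in capitals. They end at the gene start where it is near.
MCM2 (chr1:16970189-16970213, plus strand): tggcgccaataTTTCCCGCctaatc
MCM3 (chr5:18773858-18773887, minus strand): ggaaatcaaacGCGCCAAAcaagcgcgtag
MCM4 (chr2:7130746-7130775, minus strand): cagtaataatgGCGCCAAAatcaagtgaag
MCM5 (chr2:3527501-3527530, minus strand): cggcccatcagTTTCCCGCcacattgttcc
MCM6 (chr5:18010695-18010724, minus strand): tatactttttaGCGGGAAAatgttagagga
AT1G07270 (chr1:2233018-2233042, minus strand): cgcgattcacgTTTCCCGCtactat
ICU2, distal (chr5:26776872-26776901, plus strand): gcaaatggataGCGCCAAAatcgtgtcgat
ICU2, proximal (chr5:26776891-26776920, plus strand): atcgtgtcgatTTTCCCGCcatctccattt

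No match stood before the starts of MET1, TSO2, CDC45, DEL1, CDC6, CDT1A, CDT1B, PCNA1 or PCNA2, which says only that these letters are not in this window. The whole upstream windows of FAS1 and TSO2 are given because both genes were at least 2-fold higher in histone-high nuclei of both libraries (below), yet only FAS1 holds the letters, which are in capitals.
FAS1 (chr1:24324092-24324341, minus strand): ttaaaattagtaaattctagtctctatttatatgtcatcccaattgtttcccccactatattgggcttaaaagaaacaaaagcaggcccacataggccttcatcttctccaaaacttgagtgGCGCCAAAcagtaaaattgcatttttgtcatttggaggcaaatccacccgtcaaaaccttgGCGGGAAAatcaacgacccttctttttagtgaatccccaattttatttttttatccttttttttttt
TSO2 (chr3:9981621-9981870, minus strand): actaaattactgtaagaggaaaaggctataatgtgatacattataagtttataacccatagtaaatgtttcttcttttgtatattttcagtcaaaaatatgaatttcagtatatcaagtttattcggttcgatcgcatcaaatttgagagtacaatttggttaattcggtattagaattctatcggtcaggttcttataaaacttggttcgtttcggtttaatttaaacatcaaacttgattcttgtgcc

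The pooled nuclei of day 4 and day 3 were compared to see how the replication genes stood at stage 5 and stage 4. The 32 members together made 1867 CPM (1841 to 1894) at day 4, against 1920 CPM (1894 to 1946) at day 3, a log2 ratio of -0.04 (-0.07 to -0.01). Single genes were compared on log2((CPM + 1) ratio) and called higher or lower past a fold of 1.2 where they had at least 200 UMIs over both libraries, which all 32 had. At day 4, 6 members were lower, where 15.4% of the 14740 genes with that many UMIs were lower, and 4 were higher, where 27% of those genes were higher. The number lower was thus close to the share of all genes, and the number higher was below it. The median of the members was -0.05 and that of all those genes 0.08, with 18 of the 32 members below 0. Under TMM scaling, 9 members were lower and 1 was higher, and the calls over all genes turned to 2585 higher and 3195 lower, against 3986 and 2267 under CPM scaling. Library preparation differed between the days in PCR cycles (14 at day 4 and 11 at day 3 for the cDNA) and in the sequencer, which cannot be told apart from the day.

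Among the clamp genes, PCNA1 stood furthest from equality of all members. It had 36.4 CPM (32.8 to 40.3) at day 4, against 59.3 CPM (54.8 to 64.0) at day 3, a log2 ratio of -0.70 (-0.89 to -0.52). Its near-identical paralog PCNA2 had 30.7 CPM at day 4 and 37.5 CPM at day 3, and reads of the pair may be split or lost by the counting. Without cluster 6, a choice made after seeing the data, PCNA1 kept a lower value at day 4 (-0.38 on the (CPM + 1) scale), and PCNA2 turned to 0.14.

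The origin recognition genes stood on both sides. ORC1A, which with ORC1B encodes the large subunit of the complex, had 11.0 CPM at day 4 and 14.4 CPM at day 3. ORC1B had 17.5 CPM at day 4 and 25.2 CPM at day 3, a log2 ratio of -0.52 (-0.80 to -0.24), whereas ORC3 had 41.1 CPM at day 4 and 33.8 CPM at day 3. Both ORC1 genes were thus lower and ORC3 higher at day 4, and ORC2 had about the same level on both days (12.1 CPM at day 4 and 11.9 CPM at day 3). For ORC1A and ORC1B, which are paralogs, the counting may also split reads.

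All 6 helicase genes were below 0, and of these only MCM5 passed the fold. The intervals of MCM2, MCM4, MCM6 and MCM7 held 0, and the genes below 0 were not counted over all genes. MCM5 had 111 CPM (104 to 117) at day 4, against 134 CPM (127 to 141) at day 3, a log2 ratio of -0.27 (-0.39 to -0.16). Summed over MCM2 to MCM7, the level was 413 CPM (400.2 to 425) at day 4, against 460.1 CPM (448 to 473) at day 3. Of the genes that activate the helicase, MCM10 was lower, with 16.7 CPM at day 4 and 22.1 CPM at day 3, and CDC45 had 13.6 CPM at day 4 and 15.6 CPM at day 3.

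The 4 members higher at day 4 came from several roles. RNR1, the large subunit of ribonucleotide reductase, had 126 CPM (119 to 133) at day 4, against 105 CPM (98.9 to 111) at day 3. DEL1, an atypical E2F that represses its targets, had 22.8 CPM at day 4 and 16.4 CPM at day 3, a log2 ratio of 0.48 (0.19 to 0.76). E2FC, a repressor-type E2F, had 37.9 CPM at day 4 and 31.2 CPM at day 3, and ORC3 was the other one. Only DEL1 stayed higher under TMM scaling. TSO2, the small subunit of ribonucleotide reductase, was at 122 CPM on both days, and the 3 chromatin genes stayed within the fold. Members with an E2F motif before the start stood on both sides, MCM5 and ORC1A among the lower and ORC3 among the higher ones.

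**Figure D1:**
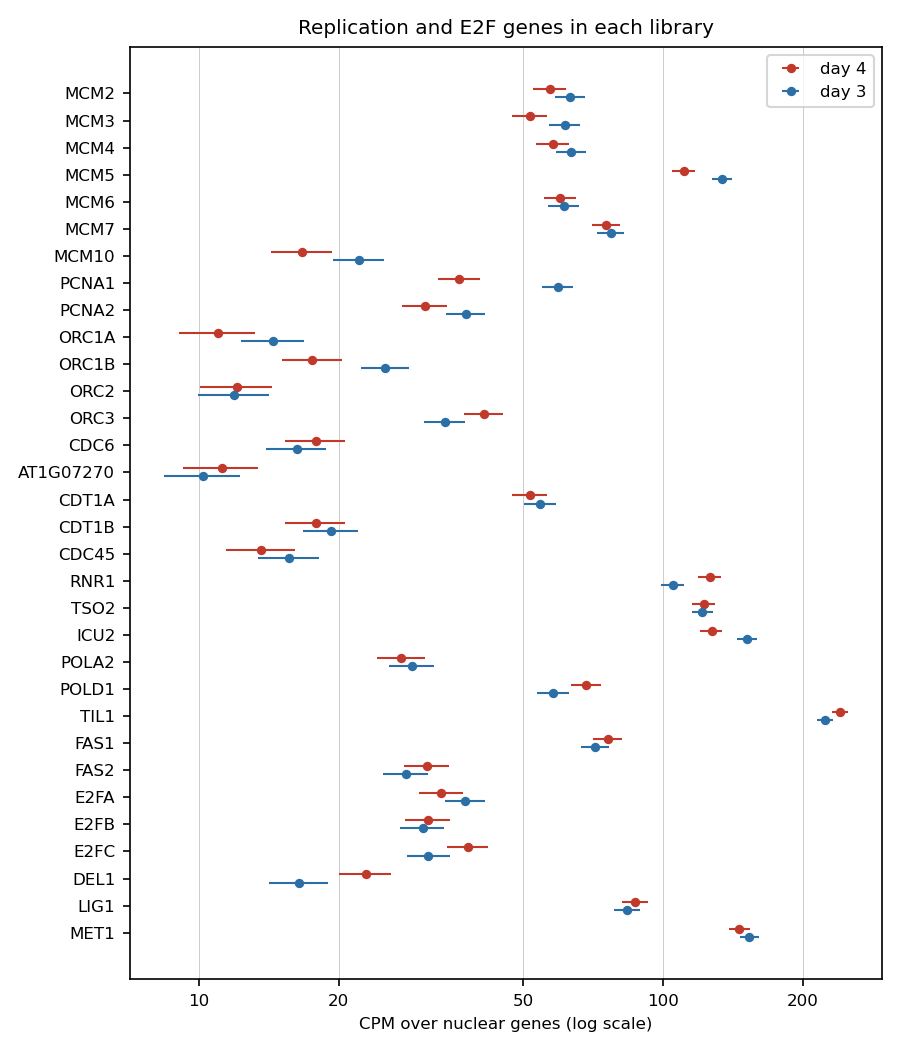
Level of each of the 32 genes in the 2 libraries, in CPM over nuclear genes on a log axis, with day 4 in red and day 3 in blue. Bars are exact 95% Poisson intervals of 1 library each. PCNA1 has the widest gap, with 36.4 CPM at day 4 and 59.3 CPM at day 3.

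Histone genes are transcribed mainly in S phase, so nuclei were ranked by the share of their UMIs that fell on 26 histone genes, none of them a member. The 10% with the highest share are called histone-high here (454 nuclei at day 4 and 440 at day 3). They were set against the rest of the same library, which left out both these nuclei and the G2/M-high nuclei described below (3649 nuclei at day 4 and 3531 at day 3). Histone-high is a range of a score and not a cell type, with 55 nuclei at day 4 and 106 at day 3 within 10% of the lowest share that counted, 1.38% and 1.82%. Median depths were 1882.5 UMIs in histone-high nuclei and 1750 in the rest at day 4, and 1818 and 1830 at day 3. Cluster 6 made up 0.661% of histone-high nuclei at day 4 and 10.7% at day 3.

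TSO2, MET1, FAS1, DEL1, CDC45, CDC6 and AT1G07270 were at least 2-fold higher in histone-high nuclei of both libraries. With 50 UMIs required outside the histone-high nuclei, 0.865% of genes were. CDC45, CDC6 and AT1G07270 had fewer than 200 UMIs in each library, and DEL1 had fewer at day 3. None of MCM2 to MCM7 was 2-fold higher, which also held for most genes. The 32 members together made 3173 CPM in histone-high nuclei and 1835 CPM in the rest at day 4, a log2 ratio of 0.79 (0.73 to 0.85). At day 3 they made 3095 CPM in histone-high nuclei and 1869 CPM in the rest, a log2 ratio of 0.73 (0.67 to 0.78). With a minimum of 200 UMIs in the library and a fold of 2, 5 of 24 members were higher at day 4, where 1.3% of 12044 genes were, and 4 of 26 were higher at day 3, where 0.974% of 12220 genes were. None of them was lower in either library, where 2.29% of genes at day 4 and 2.67% at day 3 were. The median over all 32 members was 0.42 at day 4 and 0.44 at day 3, against -0.08 over all genes on each day. DEL1 is one of the 5 and passed the minimum at day 4 only through its histone-high nuclei, with 233 UMIs in all and 159 outside them. With 200 UMIs required outside the histone-high nuclei, a minimum chosen after seeing the data, 4 of 23 members were higher at day 4, where 1.23% of genes were. With 50 UMIs required there, which every member had, 9 of 32 were higher at day 4, where 1.47% of genes were, and 8 of 32 at day 3, where 1.22% were. Of these, 7 were higher in both libraries, where 0.865% of genes were: CDC45, TSO2, MET1, DEL1, AT1G07270, FAS1 and CDC6. Of the tested genes at day 4, 2 in place of 5 were higher with a minimum of 1500 genes per nucleus. In direction, 18 members were above 0 in both libraries, 4 were below 0 in both and 10 differed between the libraries. The same count was not made over all genes.

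CDC45, which joins MCM and GINS in the active helicase, had the widest ratio at day 4. It had 63.3 CPM (48.8 to 80.9, 64 UMIs) in histone-high nuclei and 8.59 CPM (6.68 to 10.9, 69 UMIs) in the rest at day 4, a log2 ratio of 2.88 (2.37 to 3.39). At day 3 it had 46.6 CPM (48 UMIs) in histone-high nuclei and 12.8 CPM (116 UMIs) in the rest, a log2 ratio of 1.86 (1.35 to 2.36). With fewer than 200 UMIs in each library it stood below the minimum for the counts. MCM10, the other gene of this role, had log2 ratios of 1.14 at day 4 and 0.67 at day 3.

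Both ribonucleotide reductase genes were above the rest on both days, TSO2 by more than RNR1. TSO2 had 467 CPM (426 to 511) in histone-high nuclei and 91.0 CPM (84.5 to 97.8) in the rest at day 4, a log2 ratio of 2.36 (2.19 to 2.53). At day 3 TSO2 had 405 CPM (367 to 446) in histone-high nuclei and 96.1 CPM (89.8 to 103) in the rest, a log2 ratio of 2.08 (1.90 to 2.24). RNR1 had 242 CPM in histone-high nuclei and 119 CPM in the rest at day 4, and 169 CPM and 103 CPM at day 3. The intervals of the RNR1 log2 ratios, 0.81 to 1.22 at day 4 and 0.47 to 0.94 at day 3, lay below those of TSO2.

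MET1, the maintenance DNA methyltransferase that copies CG methylation, had 510 CPM (467 to 556) in histone-high nuclei and 113 CPM (105 to 120) in the rest at day 4. At day 3 it had 403 CPM (365 to 444) in histone-high nuclei and 132 CPM (125 to 140) in the rest. The log2 ratios were 2.18 (2.02 to 2.34) at day 4, against 1.61 (1.44 to 1.77) at day 3, and the day 4 interval lay wholly above the other. This difference was not tested. The histone-high nuclei of day 4 and day 3 also differed in their lowest histone share (1.38% and 1.82%) and in cluster 6 nuclei (0.661% and 10.7%). The other chromatin genes encode the large and middle subunits of chromatin assembly factor 1, and they did not run together. FAS1 had 179 CPM (154 to 207) in histone-high nuclei and 70.0 CPM (64.3 to 76.0) in the rest at day 4, and 163 CPM (139 to 190) and 64.6 CPM (59.4 to 70.0) at day 3. FAS2 had 28.7 CPM in histone-high nuclei and 34.0 CPM in the rest at day 4, and 35.0 CPM and 28.9 CPM at day 3.

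In the E2F family, DEL1 was the one gene past 2-fold. DEL1 had 73.2 CPM (57.5 to 91.9) in histone-high nuclei and 17.3 CPM (14.5 to 20.4) in the rest at day 4, and 47.6 CPM (35.2 to 62.9) and 13.4 CPM (11.1 to 16.0) at day 3. The activating E2FA had log2 ratios of 0.36 (-0.14 to 0.82) at day 4, against 0.39 (-0.06 to 0.83) at day 3. E2FB, the other activator, had 0.34 at day 4 and -0.15 at day 3, and E2FC had 0.43 and 0.55, so the intervals of all these E2FA and E2FB values held 0.

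Licensing genes fell on both sides. CDC6 had 36.6 CPM in histone-high nuclei and 17.4 CPM in the rest at day 4, and 31.1 CPM and 14.9 CPM at day 3. AT1G07270, annotated as another CDC6 gene, had 30.7 CPM (31 UMIs) in histone-high nuclei and 9.71 CPM (78 UMIs) in the rest at day 4, and 29.1 CPM (30 UMIs) and 8.85 CPM (80 UMIs) at day 3. Both CDC6 genes thus stood at least 2-fold above the rest, with few UMIs. CDT1A, the loading factor whose protein is degraded as cells go through the cycle, stood on the other side in its transcript level. It had 28.7 CPM (19.2 to 41.2) in histone-high nuclei and 56.6 CPM (51.5 to 62.1) in the rest at day 4, and 38.8 CPM (27.8 to 52.9) and 57.6 CPM (52.8 to 62.8) at day 3. ORC1B had log2 ratios of -0.49 (-1.39 to 0.30) at day 4, against -0.31 (-1.01 to 0.32) at day 3, and ORC3 had -0.33 and 0.05.

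Most fork genes were above the rest, with smaller ratios than TSO2 or MET1, and LIG1 was the exception. PCNA2 had log2 ratios of 1.00 (0.57 to 1.42) at day 4, against 1.13 (0.76 to 1.49) at day 3. PCNA1 had 0.59 (0.16 to 1.00) at day 4, against 0.97 (0.67 to 1.27) at day 3. Of the catalytic subunits, ICU2 of polymerase alpha had 0.51 and 0.65, POLD1 of polymerase delta 0.56 and 0.53, and TIL1 of polymerase epsilon 0.42 and 0.46 at day 4 and day 3, with every one of these 6 intervals above 0. The ligase LIG1 had -0.21 (-0.56 to 0.12) at day 4, against 0.15 (-0.17 to 0.46) at day 3.

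The 6 helicase genes together had 403 CPM in histone-high nuclei and 448 CPM in the rest at day 4, a log2 ratio of -0.15 (-0.30 to -0.0047). At day 3 they had 530.2 CPM in histone-high nuclei and 478 CPM in the rest, a log2 ratio of 0.15 (0.02 to 0.28). The ratios thus lay on opposite sides of 0, but that of day 4 was 0.0072 with a minimum of 500 genes per nucleus, and that of day 3 was -0.15 with the highest 5% of nuclei and -0.0088 with nuclei thinned to 1000 UMIs. None of the 6 genes was 2-fold apart in either library. MCM7 was the one helicase gene above the rest on both days, with log2 ratios of 0.36 (0.05 to 0.67) at day 4, against 0.51 (0.22 to 0.80) at day 3. MCM5 and MCM2 were below the rest on both days, MCM2 by -0.63 (-1.12 to -0.18) at day 4, against -0.04 (-0.43 to 0.33) at day 3.

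**Figure D2:**
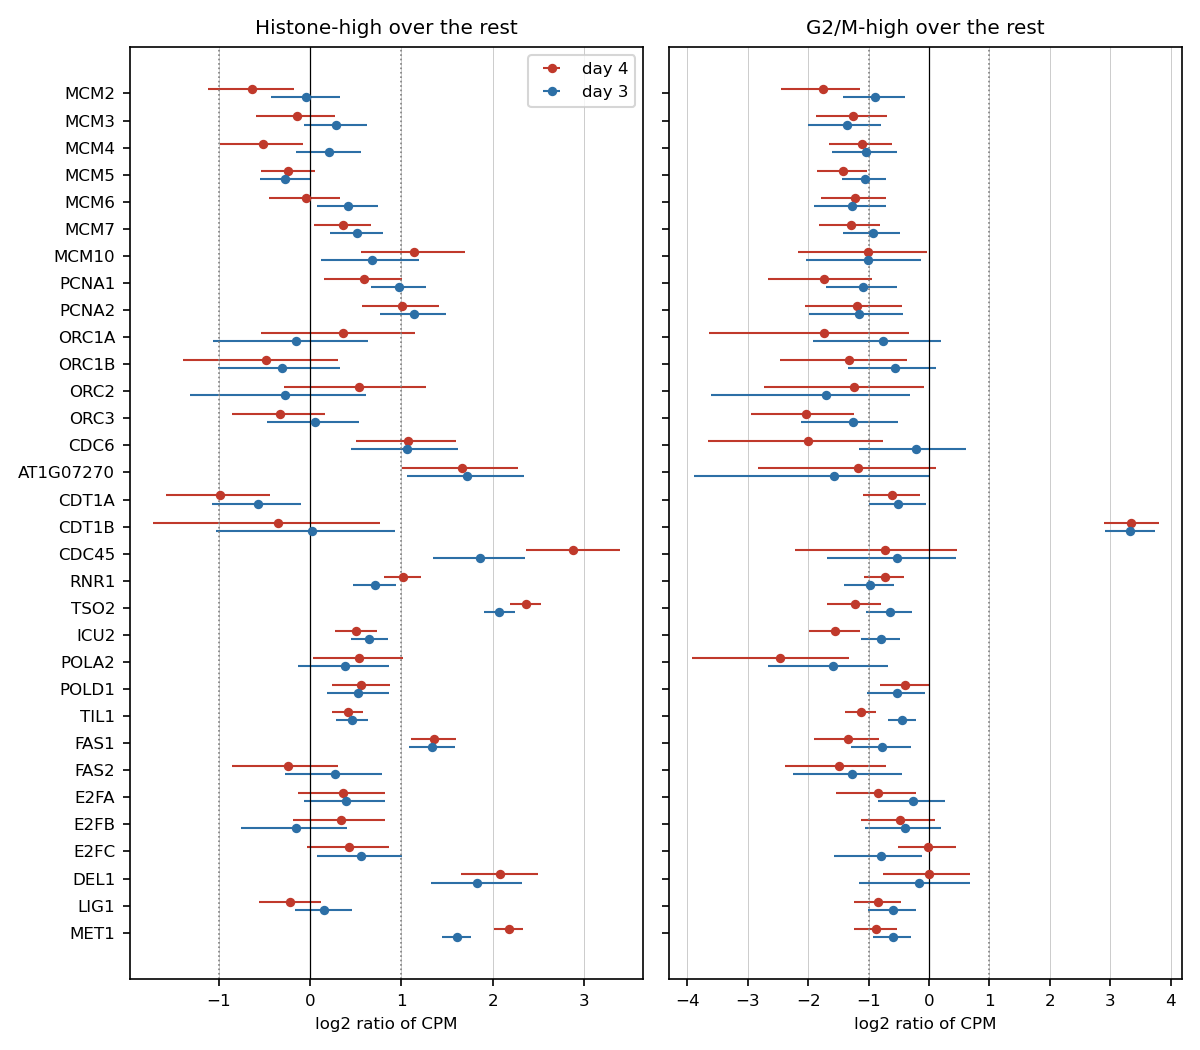
Log2 ratio of CPM for each of the 32 genes, in histone-high nuclei over the rest (left) and in G2/M-high nuclei over the rest (right), with day 4 in red and day 3 in blue. Bars are exact 95% intervals for counting error and dotted lines mark a fold of 2. CDC45, TSO2, MET1 and DEL1 lie furthest to the right in the left panel, and CDT1B alone lies to the right in the right panel, at 3.35 for day 4 and 3.33 for day 3.

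Along the whole ranking by histone share, divided at ranks of 50, 80, 90 and 95%, MET1 was higher at each step. At day 4 its levels, low to high, were 75.5, 97.7, 256, 446 and 595 CPM, and at day 3 they were 81.9, 161, 189, 310.3 and 546 CPM. TSO2 followed the same course, with 50.0 CPM in the lowest step and 490.4 CPM in the highest at day 4, and 46.5 and 513 CPM at day 3. In CDC45 the lowest step had 4.35 CPM (22 UMIs) and the highest 67.7 CPM (29 UMIs) at day 4, and 6.41 CPM (31 UMIs) and 69.2 CPM (29 UMIs) at day 3. MET1 and TSO2 thus already differed between the lower steps, which the choice of the highest 10% does not touch. The steps held all nuclei, however, G2/M-high ones included. Nuclei of the G2/M gene cluster described below made up 15.4% of the lowest step at day 4 and 23.9% at day 3. In the top step they made up 0% and 1.37%. Their part in these curves, that of the MCM sum included, was not tested. CDT1A had its highest value in one of the lower steps and its lowest in the top one, 18.7 CPM (8 UMIs) at day 4, against 31.02 CPM (13 UMIs) at day 3. MCM2 to MCM7 together had a maximum before the top step in both libraries: 401, 427, 434, 448 and 341 CPM at day 4, and 405, 481, 529, 604 and 429 CPM at day 3. In the top step the interval was 288 to 401 CPM at day 4 and 369 to 497 CPM at day 3, and in the step before it 396 to 506 CPM and 543 to 669.5 CPM. The step of ranks 80 to 90% held 6.59% cluster 6 nuclei at day 4 and 35.2% at day 3, whose part in these curves was not tested.

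**Figure D3:**
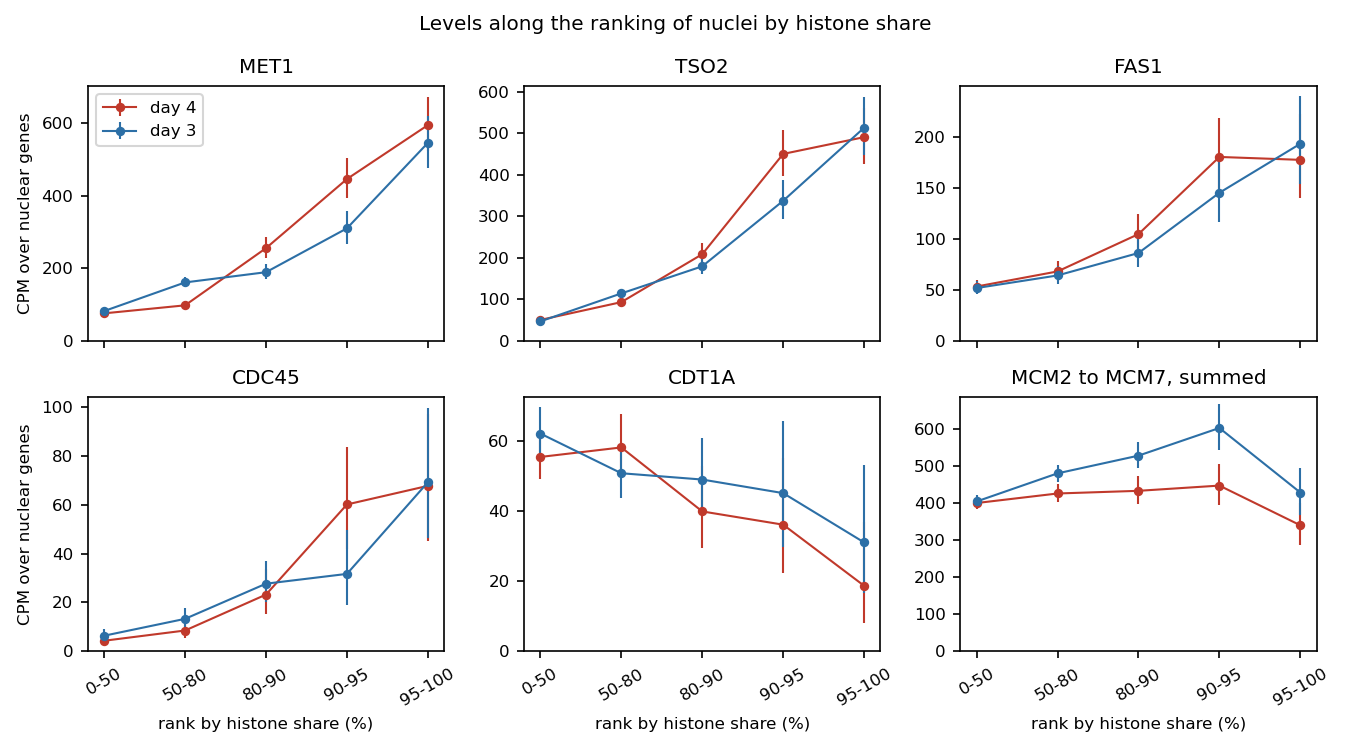
Levels in CPM over nuclear genes of MET1, TSO2, FAS1, CDC45 and CDT1A and of MCM2 to MCM7 summed, in 5 steps of nuclei ranked by histone share from low to high, with day 4 in red and day 3 in blue. Bars are exact 95% Poisson intervals. The steps hold all nuclei, G2/M-high ones included. MET1, TSO2, FAS1 and CDC45 have their low values on the left, CDT1A has its lowest in the top step, and the MCM sum reaches 448 CPM at day 4 and 604 CPM at day 3 one step before the top.

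Per nucleus, these genes were sparse. With every nucleus thinned to 1000 UMIs, which left out no nucleus, a UMI of any of the 32 members was found in 79.7% (75.7 to 83.3) of histone-high nuclei and 65.6% (64.0 to 67.1) of the rest at day 4, and in 83.9% and 70.2% at day 3. Unthinned shares were 93.2% and 80.6% at day 4, and 94.3% and 84.6% at day 3. A UMI of MET1 was found in 31.9% (27.7 to 36.4) of histone-high nuclei and 8.39% (7.51 to 9.33) of the rest at day 4, and in 29.5% (25.3 to 34.0) and 10.8% (9.84 to 11.9) at day 3. Unthinned, these MET1 shares were 50.2% and 15.3% at day 4, and 45.7% and 20.8% at day 3. For TSO2 the thinned shares were 26.7% and 6.22% at day 4, and 27.0% and 7.11% at day 3, and unthinned they were 40.7% and 10.6%, and 41.1% and 15.0%. In the lower ranks up to 50% by histone share, where histone RNA was low, MET1 was found in 6.42% of nuclei at day 4 and 7.82% at day 3. The median depth there was 1836 UMIs at day 4 and 1795 UMIs at day 3. TSO2 was found there in 4.31% at day 4 and 4.32% at day 3. Free RNA did hold both genes, at 140.2 CPM for MET1 and 148 CPM for TSO2 in the day 3 droplets of 50 to 200 UMIs. These levels were below those of day 3 histone-high nuclei, but above those of the day 3 rest and of the ranks up to 50%. In those ranks MET1 had 81.9 CPM and TSO2 46.5 CPM. Droplets were measured at day 3 only, and how much of the shares in the rest and in those ranks is free RNA was not tested. These shares are therefore not read as expression.

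Some pairs of members were also counted in the same nuclei, histone-high ones included. MET1, TSO2, FAS1 and RNR1 are among those higher in histone-high nuclei. Finding them together thus follows in part from that contrast and is a description. In the thinned nuclei, TSO2 was found in 22.8% (19.1 to 26.8) of nuclei with a MET1 UMI and 6.19% (5.47 to 6.97) of those without at day 4, and in 21.1% (17.8 to 24.7) and 7.29% (6.49 to 8.16) at day 3. FAS1 was found in 19.4% of nuclei with a MET1 UMI and 4.89% of those without at day 4, and in 16.6% and 5.44% at day 3. RNR1 was found in 23.6% of nuclei with a TSO2 UMI and 9.58% of those without at day 4, and in 15.4% and 8.90% at day 3. CDT1B did not follow this pattern, with 1.27% (0.466 to 2.73) of nuclei with a MET1 UMI and 1.55% (1.19 to 1.98) of those without at day 4, and 2.34% and 1.80% at day 3.

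Genes of G2 and mitosis served in the same way. The 10% of nuclei with the highest share of UMIs from 19 G2/M genes, cyclins and mitotic kinases among them, are called G2/M-high when they were not histone-high (442 nuclei at day 4 and 426 at day 3), and they were compared with the same rest. Only 12 nuclei at day 4 and 14 at day 3 were among the highest 10% of both rankings, and 87 and 62 nuclei lay within 10% of the lowest G2/M share that counted. Median depth was 2192.5 UMIs in G2/M-high nuclei and 1750 in the rest at day 4, and 1963 and 1830 at day 3. Doublets were not called, and their part was not tested.

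The replication genes were lower in G2/M-high nuclei almost throughout, with CDT1B as the exception. The members together made 949.6 CPM in G2/M-high nuclei and 1835 CPM in the rest at day 4, a log2 ratio of -0.95 (-1.04 to -0.86), and 1185 CPM and 1869 CPM at day 3, a log2 ratio of -0.66 (-0.74 to -0.57). In all, 31 of the 32 were below 0 in both libraries, though AT1G07270 stood at 0.21 at day 4 with nuclei thinned to 1000 UMIs. The same count was not made over all genes, whose median was also below 0. Past 2-fold and with the minimum of 200 UMIs, 15 of 24 were lower at day 4, where 4.32% of genes were, and 9 of 26 at day 3, where 4.8% were. The number higher was 0 at day 4, where 2.81% of genes were higher, and 1 at day 3, where 2.36% were. Both numbers turn on CDT1B: at day 4 it missed the minimum, and at day 3 it passed only through the G2/M-high nuclei, with 213 UMIs in all and 106 outside them. With 200 UMIs required outside the G2/M-high nuclei none was higher at day 3, where 2.12% of genes were. With 50 UMIs required outside them, which all 32 had, CDT1B alone was higher on each day, where 2.68% of genes at day 4 and 2.34% at day 3 were. By that minimum 20 members were lower at day 4, where 7.82% of genes were, 11 at day 3, where 8.51% were, and 11 in both, where 3.31% were. With the highest 20% of nuclei in place of 10%, the numbers lower were 5 at day 4 and 0 at day 3. The median of all members was -1.13 at day 4 and -0.78 at day 3, against -0.16 and -0.15 over all genes.

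The helicase genes, which like most genes were not 2-fold apart in histone-high nuclei, were all lower here. MCM2 to MCM7 together had 176 CPM (153 to 202) in G2/M-high nuclei and 448 CPM (433 to 463) in the rest at day 4, a log2 ratio of -1.35 (-1.56 to -1.14). At day 3 they had 227 CPM (198 to 258) in G2/M-high nuclei and 478 CPM (464 to 493) in the rest, a log2 ratio of -1.08 (-1.28 to -0.89). All 6 were past 2-fold at day 4 and 4 of 6 at day 3. MCM5 had 44.9 CPM in G2/M-high nuclei and 121 CPM in the rest at day 4, and 68.3 CPM and 143 CPM at day 3.

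Among the other roles, ORC3 had 11.2 CPM in G2/M-high nuclei and 45.9 CPM in the rest at day 4, and 14.8 CPM and 35.6 CPM at day 3. POLA2, which encodes the second subunit of polymerase alpha, had 5.18 CPM (6 UMIs) in G2/M-high nuclei and 28.6 CPM in the rest at day 4, and 9.89 CPM (10 UMIs) and 29.8 CPM at day 3. MET1 had log2 ratios of -0.88 at day 4 and -0.60 at day 3, and TSO2 had -1.23 and -0.65, so the genes that stood out in histone-high nuclei were below the rest here. The E2F genes were the nearest to 0 by their medians (-0.24 at day 4 and -0.32 at day 3): DEL1 had -0.0016 (-0.76 to 0.68) at day 4, against -0.17 (-1.17 to 0.68) at day 3, and E2FB had -0.48 (-1.12 to 0.10) and -0.40 (-1.07 to 0.20).

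CDT1B, the paralog of CDT1A, had 89.9 CPM (73.4 to 109, 104 UMIs) in G2/M-high nuclei and 8.84 CPM (6.90 to 11.1, 71 UMIs) in the rest at day 4, a log2 ratio of 3.35 (2.90 to 3.80) and a fold of 10.2. At day 3 it had 106 CPM (86.7 to 128, 107 UMIs) in G2/M-high nuclei and 10.5 CPM (8.50 to 12.8, 95 UMIs) in the rest, a log2 ratio of 3.33 (2.92 to 3.75) and a fold of 10.1. The folds of the libraries were alike within these intervals. At 1000 UMIs per nucleus, CDT1B was found in 8.37% (5.96 to 11.4) of G2/M-high nuclei and 0.795% (0.533 to 1.14) of the rest at day 4, and in 10.6% (7.81 to 13.9) and 0.935% (0.644 to 1.31) at day 3. The unthinned shares were 15.8% and 1.89% at day 4, and 21.1% and 2.41% at day 3. In the day 3 droplets of 50 to 200 UMIs it stood at 13.8 CPM, above its level in the rest. How much of the shares in the rest is free RNA was not tested, so they are not read as expression. CDT1A had 37.2 CPM in G2/M-high nuclei and 56.6 CPM in the rest at day 4, and 40.6 CPM and 57.6 CPM at day 3, so the paralogs differed in direction.

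The levels by tissue were taken from clusters of both libraries, named by marker lists. A cluster in which more histone or G2/M genes than cell type markers stood out got no tissue name. The classes thus depend in part on the lists that define histone-high and G2/M-high nuclei. The cluster led by ACI1, with 5 procambium markers and 6 G2/M genes, was left unnamed in this way (169 nuclei at day 4 and 115 at day 3). The clusters were made without the members and without the histone, G2/M and other replication lists. Cell cycle genes outside these lists were not left out, so the clusters may still follow the cell cycle. Names were given from at least 3 markers, and the floral meristem-like cluster, with 6 of 9 markers, was led by ABCB4, AT2G18193 and UGT74E2, which are not floral genes, and had none of its markers among its first 10 genes. At resolution 1 the nuclei led by ABCB4 formed a cluster without floral markers, which took up 41.9% of the floral meristem-like nuclei of day 4 and 11.4% of those of day 3, so the class held a different mix on each day. In the floral meristem-like cluster the 32 members together made 2308 CPM (2227 to 2390.5) at day 4, against 2543 CPM (2455 to 2633) at day 3. The epidermis-like clusters had 2019 CPM (1961 to 2080) at day 4, against 2416 CPM (2342 to 2493) at day 3. This gap came from 1 of their 2 clusters, led by AT5G33370, with 2051 CPM at day 4 and 2788 CPM at day 3, while the one led by CER4 had 1982 CPM and 1909 CPM. The procambium-like cluster had 2465 CPM (2380 to 2552) at day 4, against 2165 CPM (2071 to 2263) at day 3. The order of these classes differed between the days. It also depended on the naming: the floral meristem-like over the cortex and mesophyll-like level at day 4, a log2 ratio of 0.36, was 0.72 with clusters at resolution 1 and 0.015 with nuclei classed by markers. Cortex and mesophyll-like clusters had 1797 CPM at day 4 and 1747 CPM at day 3, xylem-like nuclei 1412 CPM and 1689 CPM, and phloem-like nuclei 1490 CPM and 1561 CPM. The intervals of xylem-like and phloem-like nuclei overlapped on both days, with 93 and 61 nuclei at day 4 and 106 and 57 at day 3. The cluster led by AT5G56120 and CDC20.2, with all 19 G2/M genes among its markers, had 1139 CPM (1091 to 1189.6) at day 4, below every named class as a whole, and 1416 CPM (1368 to 1465) at day 3, where its interval overlapped that of the phloem-like nuclei. One small cortex and mesophyll-like cluster of 35 nuclei at day 4, led by CA2, was lower still, with 964 CPM.

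By the same clusters, MCM2 to MCM7 together had 548 CPM at day 4 and 630.04 CPM at day 3 in the floral meristem-like cluster. They had 539 CPM at day 4 and 528 CPM at day 3 in the procambium-like cluster, 433 CPM and 387 CPM in the cortex and mesophyll-like clusters, and 208 CPM and 281 CPM in the G2/M gene cluster. CDT1B had 57.9 CPM (47.3 to 70.0) at day 4, against 49.6 CPM (40.9 to 59.4) at day 3 in the G2/M gene cluster, where 76.0% of the G2/M-high nuclei of day 4 and 86.6% of those of day 3 lay. Elsewhere it had 7.78 to 10.3 CPM in the named classes at day 4 and 2.82 to 22.7 CPM at day 3.

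The share of histone-high nuclei differed between the classes, and it too depended on the naming. They made up 16.3% (13.6 to 19.2) of the floral meristem-like nuclei at day 4 and 15.7% (13.1 to 18.7) at day 3, and 13.3% and 16.6% of epidermis-like nuclei. They made up 11.4% at day 4 and 9.93% at day 3 of procambium-like nuclei, 7.75% and 7.07% of cortex and mesophyll-like nuclei, 3.28% (2 nuclei) and 1.75% (1 nucleus) of phloem-like nuclei, and 1.74% and 2.59% of the G2/M gene cluster. At resolution 1 the share was 3.51% at day 4 and 2.47% at day 3 of epidermis-like nuclei, and 20.7% and 17.5% of floral meristem-like nuclei. Clusters led by AT1G02190 and EPF2 had 8 and 7 epidermis markers there but 14 and 17 histone genes, and so got no name. The low epidermis-like share at resolution 1 thus follows in part from the naming rule. With nuclei classed by markers it was 8.51% and 10.7% of floral meristem-like nuclei, below the 11.8% and 12.2% of epidermis-like nuclei. The comparison was repeated within classes. All 32 members together had log2 ratios of 0.99 at day 4 and 1.29 at day 3 in cortex and mesophyll-like nuclei, 0.71 and 0.81 in epidermis-like nuclei, 0.78 in procambium-like nuclei on both days, and 0.59 (0.46 to 0.71) and 0.27 (0.14 to 0.40) in floral meristem-like nuclei. In xylem-like nuclei, with 6 histone-high nuclei at day 4 and 9 at day 3, the ratios were -0.22 (-0.88 to 0.38) and 1.05 (0.66 to 1.41). The 7 genes higher in both libraries (CDC45, TSO2, MET1, DEL1, AT1G07270, FAS1, CDC6) were chosen from the same contrast, so that their values are a description. In epidermis-like nuclei these genes together had 1251 CPM in histone-high nuclei and 314 CPM in the rest at day 4, and 1515 CPM and 373 CPM at day 3. In cortex and mesophyll-like nuclei they had 1642 CPM in histone-high nuclei and 264 CPM in the rest at day 4, and 1674 CPM and 272 CPM at day 3. The log2 ratio was 2.28 at day 4 and 1.90 at day 3 in procambium-like nuclei, and 1.82 (1.60 to 2.04) and 1.12 (0.88 to 1.36) in floral meristem-like nuclei, which had the lowest ratio of the 4 classes on each day. The MCM sum had log2 ratios of -0.37 (-0.68 to -0.07) at day 4, against 0.26 (0.0061 to 0.50) at day 3 in epidermis-like nuclei, on opposite sides of 0. In procambium-like nuclei they were -0.29 (-0.67 to 0.07) at day 4, against 0.25 (-0.21 to 0.68) at day 3, and in cortex and mesophyll-like nuclei 0.02 (-0.35 to 0.36) and 0.42 (-0.02 to 0.83). In floral meristem-like nuclei they were -0.23 (-0.54 to 0.06) at day 4, against -0.54 (-0.87 to -0.22) at day 3, where histone-high nuclei had 462 CPM and the rest 672 CPM.

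**Figure D4:**
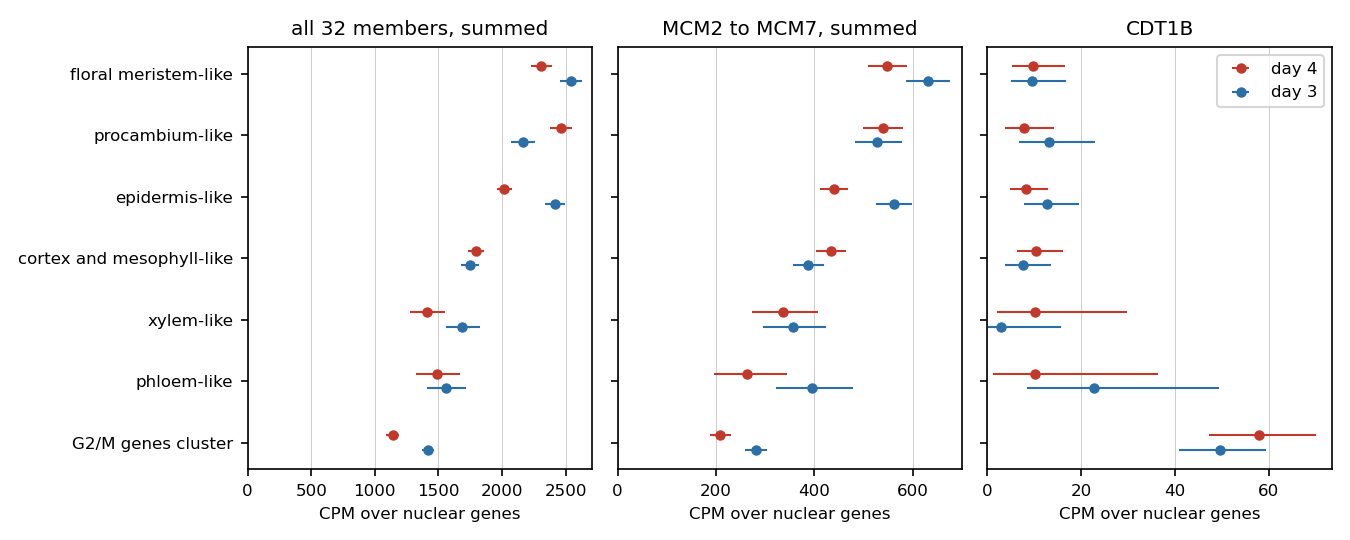
Summed level of the 32 members (left), of MCM2 to MCM7 (middle) and level of CDT1B (right) by class of nuclei, in CPM over nuclear genes, with day 4 in red and day 3 in blue, clusters of one name being pooled. Bars are exact 95% Poisson intervals. Of the groups plotted, the G2/M gene cluster has the lowest summed levels, 1139 CPM at day 4 and 1416 CPM at day 3, and the highest CDT1B level, 57.9 CPM and 49.6 CPM.

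A list of 54 other replication genes, such as GINS, replication protein A and replication factor C subunits, was read in the same way. Of the list, 43 genes had at least 200 UMIs at day 4 and 46 at day 3. In histone-high nuclei 9 of 43 were at least 2-fold higher at day 4, where 1.3% of genes were. At day 3 it was 12 of 46, where 0.974% were. None was lower, where 2.29% of genes at day 4 and 2.67% at day 3 were. The median over all 54 was 0.42 at day 4 and 0.39 at day 3. Some of those called higher passed the minimum only through their histone-high nuclei, so the counts are a description. WEE1 had 252 UMIs at day 4, 93 of them in histone-high nuclei, and 249 and 83 at day 3. PSF1 had 202 and 57 at day 4, and 228 and 55 at day 3. The thymidine kinase gene TK1a had 162 CPM in histone-high nuclei and 27.9 CPM in the rest at day 4, and 149 CPM and 20.5 CPM at day 3. VIM3, which with its relatives takes part in the upkeep of CG methylation, had 202 CPM in histone-high nuclei and 32.1 CPM in the rest at day 4, and 159 CPM and 40.0 CPM at day 3. WEE1, a kinase of the replication checkpoint, had 92.0 CPM in histone-high nuclei and 18.4 CPM in the rest at day 4, and 80.6 CPM and 17.5 CPM at day 3. These genes had the highest ratios of the list by rule. At the other end stood RBR1, the partner of E2F proteins, with log2 ratios of -0.23 (-0.57 to 0.10) at day 4, against -0.22 (-0.60 to 0.13) at day 3, DEL2 with -0.49 and -0.04, and AT4G18590, annotated as a nucleic acid-binding protein, with -0.40 and -0.30. In G2/M-high nuclei, 10 of 43 were lower and 1 higher at day 4, where 4.32% of genes were lower and 2.81% higher. At day 3, 12 of 46 were lower and 1 higher, where 4.8% of genes were lower and 2.36% higher. Day 4 over day 3 gave 10 higher and 10 lower of 52, where 27% of genes were higher and 15.4% lower. The number higher was thus below the share of all genes, and the number lower was near it. Of the histone genes 16 of 25 were lower at day 4 and none was higher. Histone genes have near-identical copies, so counts of single ones are uncertain.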

How the data were processed

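Nuclei from 2 inflorescence libraries, 1 each at day 4 and day 3 of DEX-induction, were counted by the authors with Cell Ranger 3.1.0, named in the submitters' processing notes, and the Araport11 annotation. The genome sequence is not given in the sources used here. The deposited values are raw UMI counts per gene and barcode. The day 4 file held 7716 called nuclei and the day 3 file all droplets, 652188 of them with a UMI. The deposited counts carry no correction for free RNA that the sources name.

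Barcodes with at least 1000 nuclear genes were kept, leaving out 285 organelle genes. UMIs were summed over nuclei and scaled to CPM (per 1000000 UMIs of nuclear genes in the same nuclei). Sums had exact Poisson intervals, ratios exact conditional binomial intervals, and shares exact binomial (Clopper-Pearson) intervals, all at 95%. Calls used log2((CPM + 1) ratio), which understates the change of low genes, while ratios quoted for single genes and sums are of plain CPM. No test was run, since nuclei are not replicates. Depth was 10202530 UMIs at day 4 and 11083512 at day 3. Total depth limits genes under 200 UMIs most. No doublet caller was run.

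Clusters came from 3000 variable genes, 20 components and Leiden clustering at a resolution of 0.5 (leidenalg 0.10.2), without the members, histone, G2/M and other replication lists. For scaling alone, TMM factors were computed with edgeR 4.0.16. The calls and the intervals were checked on simulated Poisson counts of gene totals, which hold no variation between nuclei. All 32 members are named, with the 3 highest and 3 lowest other replication genes by mean histone-high ratio. Members and lists were chosen with earlier results of these data known. Promoter windows and coordinates came from RefSeq on TAIR10.1 by locus tag. Alternatives were depth minimums, scalings, pseudocounts, filters, list and rank limits and cluster resolution.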

Additional observations from a re-analysis of the deposited data

Results flagged for a closer look

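The summed level of MCM2 to MCM7 in histone-high nuclei over the rest lay on opposite sides of 0 in the libraries, with a log2 ratio of -0.15 (-0.30 to -0.0047) at day 4, against 0.15 (0.02 to 0.28) at day 3. Neither interval holds 0, but both cover counting error only, and the difference between the libraries was not tested, because each day had 1 library. The part of free RNA, which held these genes at 548 CPM in the day 3 droplets, was not tested either. Within epidermis-like nuclei the same ratio was -0.37 (-0.68 to -0.07) at day 4, against 0.26 (0.0061 to 0.50) at day 3, again on opposite sides of 0 and again not tested.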

How the results depend on the processing

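No paired analysis was possible because each day had 1 library. Of the checks of the members' sums, counts of calls, tissue ratios and shares with any member, 100 stayed within their limits, 57 moved and 1 reversed. Of those of single genes, medians and the MCM2 to MCM7 sum, 1845 stayed, 341 moved and 5 reversed. Day 4 over day 3 gave 1 member higher under TMM scaling, median-of-ratios scaling, a minimum of 500 genes and a pseudocount of 10 CPM, and 2 without cluster 6 (chosen after seeing the data) and without the 8% deepest nuclei. Median-of-ratios scaling gave 10 members lower and a pseudocount of 10 CPM gave 3. The summed log2 ratio was -0.13 under TMM, -0.15 under median-of-ratios scaling, -0.11 with a minimum of 500 genes and -0.088 with 1500. TMM lowered all log2 ratios by 0.09 and median-of-ratios scaling by 0.11, and 44.7% and 40.7% of all calls were then higher, against 63.7%. PCNA2 reversed to 0.14 without cluster 6.

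Histone-high summed log2 ratios were, with the highest 20% of nuclei, 0.60 (day 4) and 0.46 (day 3), with a minimum of 1500 genes 0.68 and 0.53, and without the deepest nuclei 0.86 and 0.83. At day 3 they were 0.89 with the highest 5%, 0.67 with H3.1 and H4 genes alone, 0.62 with a minimum of 500 genes and 0.86 without cluster 6. Members higher numbered 2 at day 4 with 1500 genes, and 9 at day 4 and 8 at day 3 with no filter on low genes or with 50 UMIs outside the histone-high nuclei. The MCM2 to MCM7 sum reversed to 0.0072 at day 4 with 500 genes, and at day 3 to -0.15 with the highest 5% and -0.0088 when thinned.

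G2/M-high summed log2 ratios were -0.68 (day 4) and -0.42 (day 3) with the highest 20%, -1.12 and -0.79 with 5%, -0.79 and -0.43 with 1500 genes, and at day 4 -0.82 with 500 genes and -1.08 without the deepest nuclei. Members lower numbered 5 (day 4) and 0 (day 3) with the highest 20%, and at day 3 3 with 1500 genes, 4 with 500 genes and 2 with a pseudocount of 10 CPM. AT1G07270 reversed to 0.21 at day 4 when thinned. Unthinned shares of nuclei with any member were 93.2%, 75.1% and 80.6% at day 4 and 94.3%, 81.5% and 84.6% at day 3 for histone-high, G2/M-high and other nuclei.

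Against cortex and mesophyll-like nuclei, the summed log2 ratios of floral meristem-like, procambium-like and epidermis-like nuclei were 0.36, 0.46 and 0.17 at day 4 and 0.54, 0.31 and 0.47 at day 3. At resolution 1 they were 0.72, 0.67 and -0.030 (reversed) at day 4 and 0.91, 0.63 and 0.16 at day 3. There the naming rule left out of the epidermis-like class clusters with epidermis markers but more histone genes, so it covered different nuclei. With classes by markers they were 0.015, 0.20 and 0.078 at day 4 and 0.35, 0.42 and 0.24 at day 3. Where not stated, the cause was not tested. Genes under 200 UMIs are limited most by depth.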
